A study of Mus musculus with 6 samples.

Results

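The genes described here are 44 genes of the cell cycle and DNA replication, chosen by gene name, out of 54532 genes in the deposited count table. They comprise 20 genes used in S phase, 22 genes used in G2 and mitosis, and the D-type cyclins Ccnd2 and Ccnd3. All 44 passed the filter on low counts, so no member was lost before testing. Mouse CD8T cells from the spleen, activated with anti-CD3/CD28 beads, had been cultured for 24 hr together with other immune cells before their RNA was sequenced. The study's text names the partner cells as peritoneal macrophages elicited with thioglycolate and exposed to IFN-γ (10 ng/mL, 12 hr), whereas GEO's labels call them DC cells and the harvested cells primary T cells. In the control group (n = 3) the partner cells had received no DB2313, and in the DB2313 group (n = 3) they had received DB2313, which blocks the myeloid transcription factor Spi1, at the 14 nM named in the methods. The sources used here give no age for the animals and do not say whether the samples came from separate cultures, so all p-values measure only the spread between these samples, which may be technical. The comparison asks how exposure to DB2313-treated partner cells changed transcripts of the division machinery in the harvested cells.

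An activated T cell leaves quiescence when D-type cyclins and their kinases inactivate the Rb family, which frees E2F factors to switch on the genes of DNA replication. The MCM helicase is then loaded at origins, fires in S phase together with Cdc45 and the GINS complex, and works with the sliding clamp PCNA while nucleotide enzymes and histone supply keep pace. Genes of G2 and mitosis follow later under the DREAM and MuvB complexes, and encode B-type cyclins, mitotic kinases, the centromere and the spindle. Proliferation genes of this kind are among the strongest markers of T cells that divide after stimulation of the antigen receptor.

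Between 16612000 and 18596200 reads were counted per library, and 14883 genes were tested. A gene was called when its p from the quasi-likelihood test of edgeR, adjusted by Benjamini-Hochberg over all genes tested, was below 0.05. Levels are given in CPM, the count of a gene relative to the TMM-scaled size of its library, a scaling that sets the bulk of genes to no change, and fold changes are DB2313 over control on the log2 scale. Across all tested genes 45.4% were called, 20.8% higher and 24.6% lower, and 6.68% were called with a change above 2-fold. With library size scaling the shares were 33.1% higher and 19.2% lower, with upper quartile scaling 29.0% and 20.8%, and with scaling to T cell markers 1.26% and 76.6%. A change of scaling shifts the log2 changes of all genes by nearly the same amount, so a reversal between scalings is not separate evidence about each gene. The median of all tested genes was 0.02 under TMM and -0.55 with scaling to the T cell markers. The DB2313 libraries were all above the control libraries in 25.6% of genes and all below them in 27.5%. Replicates varied little (biological coefficient of variation 4.67%), so that changes of the size described here could pass the test.

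The libraries held transcripts of other cells beside those of T cells, and the marker shares differed between the groups. The 20 T cell markers, led by Tcf7, took 0.357% ± 0.00330 of all counts in control and 0.566% ± 0.00432 with DB2313 (SD, n = 3). All 20 were called higher, with a median log2 change of 0.59 and a range from 0.32 for Cd3e to 0.74 for Cd3d. The markers thus did not move as 1, and with scaling to their own sum they ran from -0.25 for Cd3e to 0.17 for Cd3d. The 24 macrophage markers, led by Lyz2, took 1.22% ± 0.0179 in control and 0.488% ± 0.00669 with DB2313, with 21 called lower and 3 called higher. Both counts of calls are under TMM, beside 20.8% higher and 24.6% lower over all tested genes. Each summed level was separated between the groups, at 0.354% to 0.360% against 0.563% to 0.571% for the T cell markers and at 1.21% to 1.24% against 0.481% to 0.493% for the macrophage markers. In bulk samples, fewer cells of a type and less RNA per cell cannot be told apart, and the part of this difference in the values of the division genes was not tested.

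The 20 S phase genes moved upward on the TMM scale by a small amount, a direction that reversed for all of them that rose when the libraries were scaled to the T cell markers instead. Under TMM, 13 of 20 were called higher, 1 was called lower and 6 were not called, against a background of 20.8% higher and 24.6% lower. Their median log2 change was 0.18, beside 0.02 over all tested genes, and the changes ran from -0.30 for E2f1 to 0.37 for Slbp. None passed 2-fold, where the background was 6.68%. In 13 of 20 every DB2313 library exceeded every control library (background 25.6%), in 1 every DB2313 library lay below (background 27.5%), and in 6 the groups overlapped. With libraries scaled to the T cell markers, all 20 S phase genes were called lower and their median was -0.39, beside 76.6% called lower and a median of -0.55 over all tested genes.

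**Figure D1:**
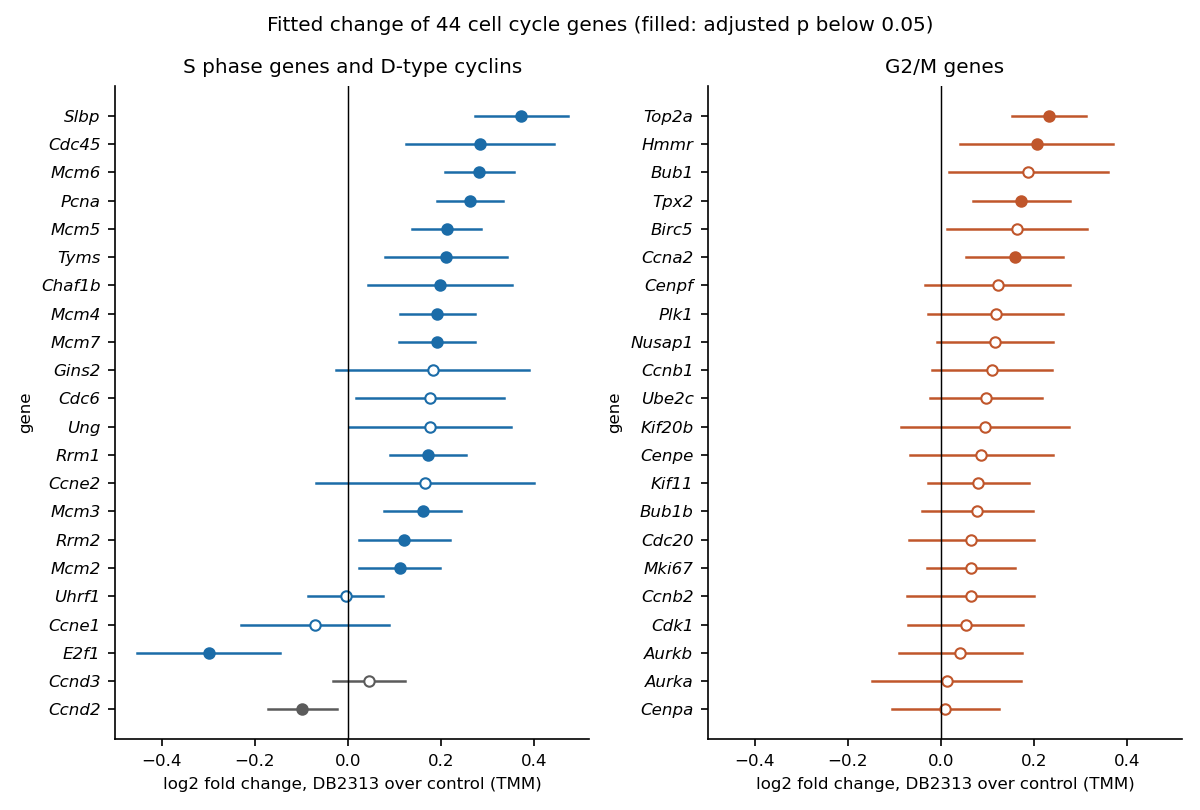
Fitted log2 fold change (TMM scale, DB2313 over control, horizontal axis) of each of the 44 genes, with 95% confidence intervals, for the S phase genes and D-type cyclins (left) and the G2/M genes (right). Filled points passed an adjusted p of 0.05, and most S phase points sit between 0.1 and 0.3 while most G2/M points are open and sit nearer to 0. All 44 values are below 0 when libraries are scaled to the T cell markers.

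Promoter sequences are shown for Slbp and Top2a, the S phase and G2/M genes with the largest rises, for E2f1, the S phase gene called lower, and for Mcm6, the member with the most E2F letters, since genes that share a phase of the cycle often share short promoter elements. The windows hold 250 bases before and 50 bases after the start of the transcript in RefSeq on GRCm38.p6, printed 5′ to 3′ on the strand of the gene, with all letters that match an E2F element (TTTCCCGC, TTTGGCGC, TTTCGCGC or TTTGCCGC), a CHR element (TTTGAA or TTTAAA) or a CCAAT box on either strand in capitals. They are Slbp (chr5:33652525-33652824), Mcm6 (chr1:128359656-128359955, chosen after its matches were seen), Top2a (chr11:99024140-99024439) and E2f1 (chr2:154569377-154569676, a window that lies inside the deposited interval of the gene).
Slbp: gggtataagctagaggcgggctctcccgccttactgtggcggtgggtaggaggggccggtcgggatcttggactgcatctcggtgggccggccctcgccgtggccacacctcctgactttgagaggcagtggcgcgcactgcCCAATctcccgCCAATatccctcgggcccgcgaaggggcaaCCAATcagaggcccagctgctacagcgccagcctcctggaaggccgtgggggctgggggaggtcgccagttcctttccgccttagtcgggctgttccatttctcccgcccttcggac
Mcm6: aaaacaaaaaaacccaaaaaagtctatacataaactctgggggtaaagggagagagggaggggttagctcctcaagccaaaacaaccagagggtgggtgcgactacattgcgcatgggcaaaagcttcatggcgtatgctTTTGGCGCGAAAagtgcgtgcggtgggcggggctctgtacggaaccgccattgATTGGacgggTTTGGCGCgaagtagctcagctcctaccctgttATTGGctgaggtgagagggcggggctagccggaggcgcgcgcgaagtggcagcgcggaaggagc
Top2a: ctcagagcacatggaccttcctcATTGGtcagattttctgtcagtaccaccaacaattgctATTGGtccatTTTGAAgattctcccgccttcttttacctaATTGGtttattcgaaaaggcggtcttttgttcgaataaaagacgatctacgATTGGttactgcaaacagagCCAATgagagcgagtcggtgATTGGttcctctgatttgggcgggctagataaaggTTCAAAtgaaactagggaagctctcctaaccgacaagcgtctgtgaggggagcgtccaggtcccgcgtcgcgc
E2f1: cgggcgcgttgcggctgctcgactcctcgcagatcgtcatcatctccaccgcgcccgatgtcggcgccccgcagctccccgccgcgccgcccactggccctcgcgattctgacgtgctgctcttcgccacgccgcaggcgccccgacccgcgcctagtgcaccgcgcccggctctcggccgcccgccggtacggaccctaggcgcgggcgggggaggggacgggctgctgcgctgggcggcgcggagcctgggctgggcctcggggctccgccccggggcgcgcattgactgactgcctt

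The Slbp window held 3 CCAAT boxes and no E2F or CHR letters, and the Mcm6 window held 3 E2F matches, of which the first pair overlaps on opposite strands, and 2 CCAAT boxes. In the Top2a window there were 2 CHR matches and 6 CCAAT boxes. The E2f1 window held none of these letters, but it does not reach the deposited start of the gene at 154569892. The sequence before that start was not read, so the lack of matches does not describe it. The window is still counted among the S phase windows below. Among members with a RefSeq window, 17 of the 20 S phase genes (19 windows) and 19 of the 22 G2/M genes (19 windows), E2F letters were found in 6 S phase windows (31.6%), those of Cdc6, Mcm3, Mcm5, Mcm6, Mcm7 and Uhrf1, in 1 G2/M window (5.3%), that of Cdk1, and in 2.3% of all 32851 promoter windows. CHR letters were found in 17 G2/M windows (89.5%), 6 S phase windows (31.6%) and 27.6% of all windows. CCAAT was in 16 G2/M windows (84.2%), 13 S phase windows (68.4%) and 37.4% of all windows. Uhrf1 carried E2F letters only in a window downstream of its deposited start, and none in the window that spans that start. Uhrf1 was the S phase gene with the smallest fitted change, and Slbp, with no E2F letters, had the largest. These matches describe letters in a fixed window and locate no binding.

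Slbp, which encodes the stem-loop binding protein that processes and exports histone mRNA in S phase, showed the largest rise of the 44 genes on the TMM scale. The gene (ENSMUSG00000004642) lies on the minus strand at chr5:33634952-33652574 of GRCm38. Its level was 61.8, 63.5 and 63.3 CPM in the control libraries and 81.2, 79.9 and 83.0 CPM in the DB2313 libraries. The 3 DB2313 libraries were all well above the control libraries, which lay within 2 CPM of each other. The mean went from 62.9 ± 0.905 to 81.4 ± 1.56 CPM (SD, n = 3), a log2 change of 0.37 ± 0.048 (SE, adjusted p = 7.40e-07), which was -0.20 with scaling to the T cell markers.

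All 6 subunits of the MCM2-7 helicase, the ring that unwinds DNA at the fork, were called higher under TMM (background 20.8%). All 6 were called lower with scaling to the T cell markers, as were 76.6% of all tested genes. Mcm6 (ENSMUSG00000026355, minus strand, chr1:128331590-128359664) rose the most, with 178, 169 and 174 CPM in control and 208, 212 and 215 CPM with DB2313. No control library of Mcm6 reached the lowest DB2313 library, and the log2 change was 0.28 ± 0.036 (adjusted p = 5.74e-07). Mcm5 went from 142 ± 2.20 to 164 ± 1.66 CPM, a log2 change of 0.21 ± 0.036. Mcm7 went from 135 ± 1.90 to 155 ± 6.51 CPM, a log2 change of 0.19 ± 0.039. Mcm4 changed by 0.19 ± 0.039 and Mcm3 by 0.16 ± 0.040, each without overlap of the groups. Mcm2 was the weakest subunit, with control libraries of 118, 128 and 120.5 CPM against 126, 135 and 135 CPM. Here 1 control library exceeded 1 DB2313 library, and the log2 change of 0.11 ± 0.042 (adjusted p = 0.0356) was no longer called in DESeq2, or without control replicate 1 or 3 or DB2313 replicate 2 or 3 (0.087 to 0.10). Summed over the 6 subunits, the level was 830.1 ± 5.53 CPM in control and 952 ± 13.6 CPM with DB2313. The fitted changes of the subunits, which assemble in equal numbers, ran from 0.11 to 0.28 on the log2 scale.

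Pcna, the sliding clamp that holds the replicative polymerases on DNA, was the S phase gene with the highest level per kilobase. It was counted at 224, 226 and 231 CPM in control and at 272, 277 and 268 CPM with DB2313. The groups were far apart relative to the spread within either, and the log2 change was 0.26 ± 0.034 (adjusted p = 7.77e-07), against -0.31 with scaling to the T cell markers. Cdc45, the helicase activator that joins MCM2-7 when an origin fires, had a change of similar size at a lower level. Its control libraries were at 30.6, 25.8 and 26.1 CPM and its DB2313 libraries at 34.1, 33.8 and 32.7 CPM, a log2 change of 0.28 ± 0.077 (adjusted p = 0.00394). Cdc6, which loads the helicase at origins, was counted at 21.7 to 22.7 CPM in control and 25.0 to 25.4 CPM with DB2313. Its groups did not overlap, but the log2 change of 0.18 ± 0.077 missed the threshold (adjusted p = 0.0654). Gins2, a GINS subunit, had a log2 change of 0.18 ± 0.10 and overlapping groups, and its exons share 67.3% of their bases with Gse1 on the opposite strand, so its counts are uncertain where counting ignored strand.

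The 3 members that supply deoxynucleotides, Rrm1, Rrm2 and Tyms, were called higher on the TMM scale (background 20.8%). They were called lower with scaling to the T cell markers, as were 76.6% of all tested genes. Rrm1, the large subunit of ribonucleotide reductase, was at 138, 136 and 134 CPM in control and at 152, 147 and 160.1 CPM with DB2313, a log2 change of 0.17 ± 0.039 without overlap. Rrm2, the small subunit whose abundance follows S phase, changed less, from 93.7 ± 1.52 to 102 ± 6.85 CPM. The DB2313 libraries of Rrm2 were at 103, 94.5 and 108 CPM, of which 1 lay within the control range of 92.2 to 95.3 CPM, and the log2 change of 0.12 ± 0.047 (adjusted p = 0.0407) was not called in DESeq2, nor when any library except DB2313 replicate 2 was left out (0.078 to 0.13). Tyms, thymidylate synthase, went from 37.3 to 38.6 CPM in control to 42.6 to 46.4 CPM with DB2313, a log2 change of 0.21 ± 0.064 (adjusted p = 0.00905). Without DB2313 replicate 1 the change of Tyms was 0.17 and missed the threshold.

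Genes of replication-coupled repair and chromatin assembly were mixed. Chaf1b, a subunit of the chromatin assembly factor that deposits new histones, had a log2 change of 0.20 ± 0.075 (adjusted p = 0.0343) with all DB2313 libraries above control, and was called lower with scaling to the T cell markers. Chaf1b was not called in DESeq2, or without control replicate 1 or 3 or DB2313 replicate 1 (0.15 to 0.19). Ung, the uracil glycosylase that removes misincorporated uracil, was at 18.1 to 19.3 CPM in control and 20.5 to 21.6 CPM with DB2313 and missed the threshold (adjusted p = 0.0923). Uhrf1, which carries maintenance methylation to newly made DNA, was counted at 114, 113 and 117 CPM in control and at 112, 116 and 115 CPM with DB2313. The libraries of Uhrf1 were interleaved, and its 95% confidence interval ran from -0.085 to 0.076, although this gene was counted as deeply as Mcm4.

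E2f1, an activator E2F that drives the genes of S phase, was the S phase gene called lower. The gene (ENSMUSG00000027490) lies on the minus strand at chr2:154559407-154569892. It was counted at 31.9, 32.2 and 36.4 CPM in control and at 28.2, 26.3 and 27.0 CPM with DB2313. Every DB2313 library was below every control library, and the log2 change was -0.30 ± 0.075 (adjusted p = 0.00198). It kept this direction under every scaling tried. The cyclins that pair with Cdk2 at the start of S phase were not called under TMM. Ccne1 had a log2 change of -0.07 ± 0.076 and Ccne2 one of 0.16 ± 0.11, both with overlapping groups, and 17.4% of the exon bases of Ccne2 are shared with Ints8 on the opposite strand.

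The 22 G2/M genes moved less under TMM, and their direction also reversed with scaling to the T cell markers. Of 22, 4 were called higher (18.2%, near the background of 20.8%), 0 lower (background 24.6%) and 18 were not called. The number called higher was 2 without control replicate 2. It was 17 with library size scaling, where 33.1% of all tested genes were called higher, and 14 with upper quartile scaling, where 29.0% were. All 22 fitted changes were above 0 under TMM, but none exceeded 0.23, and the median was 0.10 beside 0.02 over all tested genes. Groups did not overlap for 9 of 22, all with DB2313 above control, against a background of 25.6%, and overlapped for 13. With scaling to the T cell markers, all 22 were called lower, with a median of -0.48, beside 76.6% of all tested genes called lower. The median control level of the G2/M genes was 47.7 CPM, and their standard errors ran from 0.038 for Top2a to 0.087 for Kif20b, beside 0.034 to 0.11 for the S phase genes.

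Top2a, the topoisomerase that untangles sister chromatids, showed the largest rise among the G2/M genes on the TMM scale. The gene (ENSMUSG00000020914) lies on the minus strand at chr11:98992943-99024189. It was counted at 257, 249.9 and 244 CPM in control and at 281, 293 and 309 CPM with DB2313. The DB2313 libraries were all above the control libraries, and the log2 change was 0.23 ± 0.038 (adjusted p = 2.12e-05), against -0.34 with scaling to the T cell markers. Mki67, the proliferation marker, was counted at a similar depth but did not separate the groups. Its control libraries were at 204, 196 and 182 CPM and its DB2313 libraries at 198, 192 and 218 CPM. The libraries of both groups of Mki67 were interleaved, and the log2 change of 0.06 ± 0.046 was not called (adjusted p = 0.268).

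Among the cyclins and their kinase, Ccna2, used from S phase into G2, was called higher under TMM at 0.16 ± 0.050 (adjusted p = 0.0127), with 67.6 to 74.4 CPM in control and 76.8 to 81.0 CPM with DB2313, and was called lower with scaling to the T cell markers. The call for Ccna2 was lost without control replicate 1 or 2 or DB2313 replicate 3 (0.13 to 0.15). Its exons share 12.5% of their bases with Exosc9 on the opposite strand. The mitotic cyclins Ccnb1 and Ccnb2 had log2 changes of 0.11 ± 0.062 and 0.06 ± 0.066, and Cdk1, the kinase they activate, one of 0.05 ± 0.059. None of these 3 was called, and their groups overlapped. Ccnb1 and Ccnb2 have processed copies that took few counts, 83 for Ccnb1-ps and 260 for Ccnb2-ps over all libraries.

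The members that encode mitotic kinases and the checkpoint proteins Bub1 and Bub1b were not called under TMM. Aurka and Aurkb, the Aurora kinases of the spindle pole and the centromere, had log2 changes of 0.01 and 0.04. Plk1, the Polo kinase of mitotic entry, had libraries at 37.0, 31.7 and 36.2 CPM in control and at 38.2, 38.1 and 37.5 CPM with DB2313, a small gap without overlap and a log2 change of 0.12 ± 0.070. Bub1 and Bub1b, kinase and pseudokinase of the spindle checkpoint, also had no overlap between groups. Bub1 came closest to the threshold among them, with 21.0 to 25.1 CPM in control, 25.5 to 27.6 CPM with DB2313 and an adjusted p of 0.0661, and it was called without control replicate 1 (0.24). Cdc20 and Ube2c, which together with the anaphase-promoting complex mark proteins for destruction, had log2 changes of 0.07 and 0.10 with overlapping groups, and Ube2c was called higher without control replicate 1 (0.16).

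Of the spindle and centromere genes, Tpx2, an activator of Aurora A on spindle microtubules, and Hmmr, a microtubule-bound partner of Tpx2, were called higher under TMM and lower with scaling to the T cell markers. Tpx2 was at 65.3, 66.9 and 64.4 CPM in control and at 70.7, 76.1 and 74.9 CPM with DB2313, which left a clear gap between the groups and a log2 change of 0.17 ± 0.050 (adjusted p = 0.00714). Hmmr was at 28.2, 25.7 and 24.9 CPM in control and at 30.0, 28.2 and 32.8 CPM with DB2313. The groups of Hmmr touched, and its log2 change of 0.21 ± 0.079 (adjusted p = 0.0377) was not called in DESeq2, or without control replicate 2 or 3 or DB2313 replicate 1 or 3 (0.15 to 0.21). The spindle motors Kif11 and Kif20b had log2 changes of 0.08 and 0.10 with overlapping groups. Nusap1, which bundles spindle microtubules, had a log2 change of 0.12 and separated groups but was not called. The kinetochore proteins Cenpe and Cenpf likewise had separated groups with changes of 0.09 and 0.12, and Cenpa, the centromeric histone, one of 0.01 with interleaved libraries.

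Birc5, which encodes survivin of the chromosomal passenger complex, was the member most affected by a single library. Its control libraries were nearly equal at 47.8, 48.0 and 48.0 CPM, and its DB2313 libraries were at 59.6, 55.2 and 46.1 CPM. The third DB2313 library fell below every control library while the other two were above them, and the log2 change of 0.16 ± 0.073 was not called (adjusted p = 0.0729). Without that library the log2 change was 0.26 and was called.

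**Figure D2:**
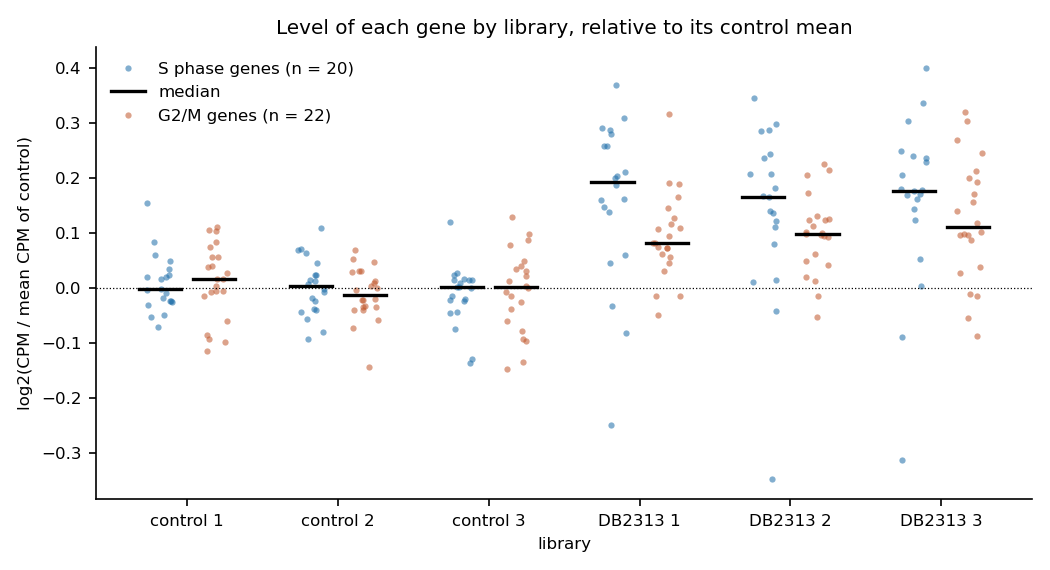
Level of each S phase gene (n = 20) and G2/M gene (n = 22) in each of the 6 libraries, as log2 of its CPM (TMM) over its mean in control, with black bars for the medians. Medians of the 3 DB2313 libraries lie at 0.17 to 0.19 for S phase genes and 0.08 to 0.11 for G2/M genes, above all control medians, an order that depends on TMM and reverses with scaling to the T cell markers.

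The D-type cyclins, which answer to mitogen signals in G1, comprise Ccnd2, which was called lower, and Ccnd3, which was not called under TMM. Ccnd2, a D-type cyclin induced in activated lymphocytes, was at 599, 611 and 597 CPM in control and 531, 573 and 584 CPM with DB2313. Every DB2313 library was below control, but the DB2313 group spread over a wider range, and the log2 change was -0.10 ± 0.035 (adjusted p = 0.0273). The call for Ccnd2 was lost when libraries were scaled by size or upper quartile, and without control replicate 2 (-0.09) or DB2313 replicate 1 (-0.06). Ccnd3 was at 245 to 262 CPM in control and 252 to 272 CPM with DB2313 with overlapping groups (log2 change 0.04 ± 0.038, adjusted p = 0.352), while it was called lower with scaling to the T cell markers. Ccnd1, which is no member and was added after its values were seen, was at 31.4, 31.5 and 31.2 CPM in control and at 21.8, 19.0 and 21.4 CPM with DB2313. Every DB2313 library of Ccnd1 was below control, and its log2 change was -0.59 ± 0.078 (adjusted p = 9.72e-07).

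Per kilobase of the deposited gene length, the scale on which genes can be compared with each other, Pcna was the most highly expressed member in control at 94.7 CPM per kb, followed by Ccnd2 at 64.0, Mcm3 at 38.1, Mcm6 at 37.3, Mcm5 at 35.5 and Rrm2 at 33.8 CPM per kb. Ccne2 at 3.25 and Cenpf at 1.55 CPM per kb stood at the low end. A processed copy of Pcna, Pcna-ps2, took 158 counts over all libraries, far below Pcna itself.

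The levels were then summed within each class. The S phase genes together reached 1692, 1685 and 1684 CPM in control and 1905, 1916 and 1923 CPM with DB2313, which is 13.5% more on the TMM scale and a fall of 23.7% relative to the T cell markers. The G2/M genes together reached 1352, 1328 and 1324 CPM in control and 1430.3, 1441 and 1482 CPM with DB2313, which is 8.75% more on the TMM scale and a fall of 26.9% relative to the T cell markers. Neither sum overlapped between the groups on either scale. The ratio of the S phase sum to the G2/M sum needs no scaling between libraries, and it was 1.25, 1.27 and 1.27 in control and 1.33, 1.33 and 1.30 with DB2313. All 3 DB2313 libraries had a higher ratio than all 3 control libraries, a difference of 4.37% between the means of 1.26 ± 0.0110 and 1.32 ± 0.0187 (SD, n = 3).

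**Figure D3:**
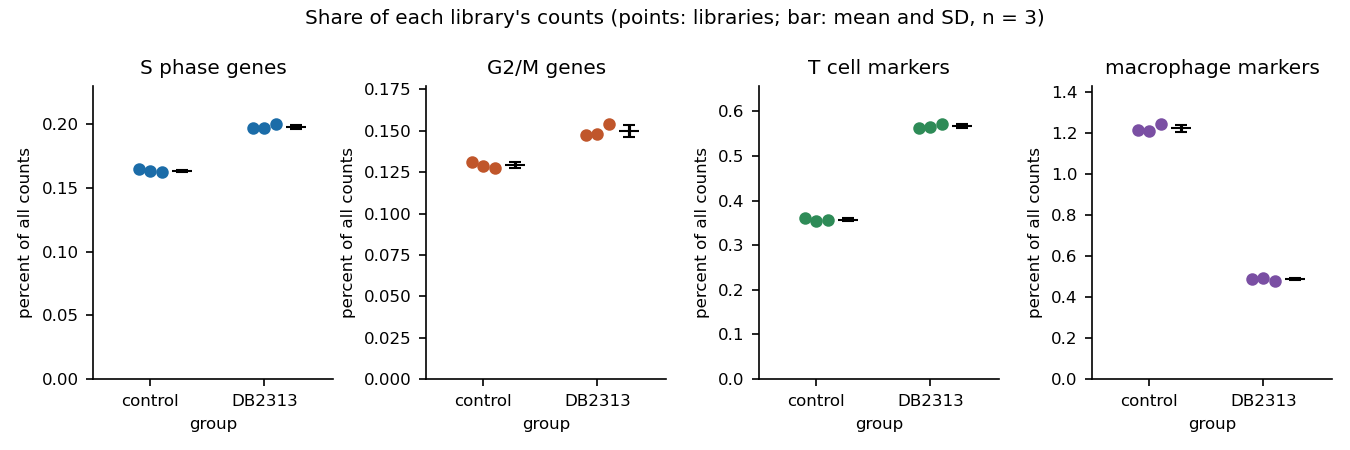
Percent of all counts in each library taken by the S phase genes, G2/M genes, T cell markers and macrophage markers, by group, with the mean and SD of 3 libraries beside the points. S phase genes went from 0.163% to 0.198% and G2/M genes from 0.129% to 0.150%, while T cell markers went from 0.357% to 0.566% and macrophage markers from 1.22% to 0.488%, so the division genes fell relative to the T cell markers.

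The direction of these genes thus depended on the reference. Under TMM the median log2 change was 0.18 for S phase genes, 0.10 for G2/M genes and 0.59 for T cell markers. Under library size scaling the corresponding medians were 0.27, 0.19 and 0.68, and 34 of the 44 members were called higher, beside 33.1% of all tested genes. With scaling to the T cell markers, the median of all tested genes was -0.55, those of the S phase and G2/M genes were -0.39 and -0.48, and all 44 members were called lower. Relative to the median of all tested genes, the S phase genes stood 0.16 higher and the G2/M genes 0.08 higher under each of these scalings. A scaling shifts all genes by nearly the same amount, so these differences could hardly change and are no check on the result. Scaling to the T cell markers also placed 76.6% of all tested genes among those called lower, so the fall of the members on that scale was shared by most of the table.

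**Figure D4:**
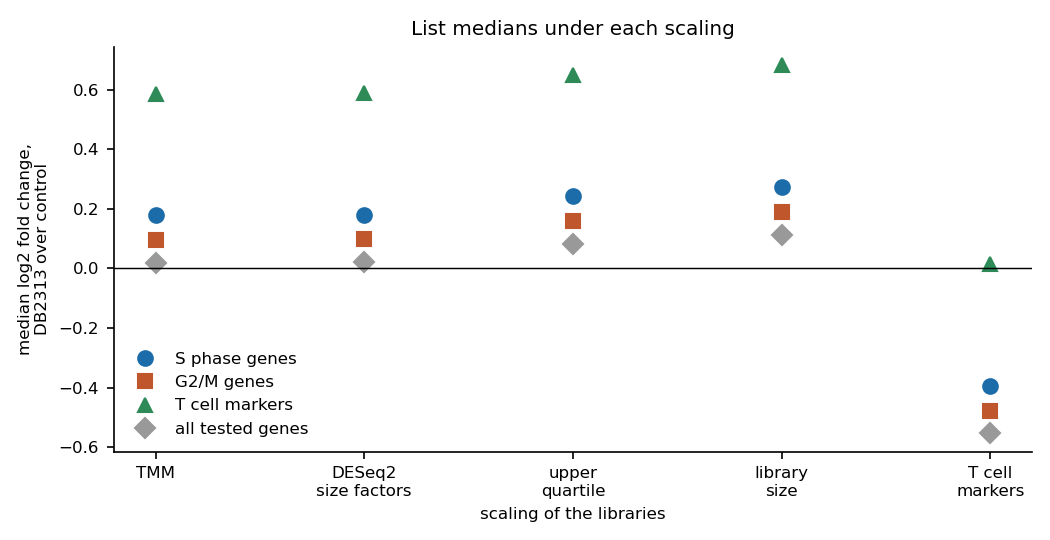
Median log2 fold change (DB2313 over control) of S phase genes, G2/M genes, T cell markers and all tested genes under 5 scalings of the libraries. The medians of the S phase and G2/M genes are above 0 under TMM (0.18 and 0.10) and below 0 with scaling to the T cell markers (-0.39 and -0.48). The order of the lists is the same in each because a scaling shifts all genes by nearly the same amount.

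Markers of other cells that the harvest could hold moved as well. Their calls are given under TMM, where 20.8% of all tested genes were called higher and 24.6% lower. Neutrophil markers, led by S100a9, went from 0.196% to 0.0735% of counts, with 10 of 11 called lower and 1 higher. Dendritic cell markers, led by Itgax, went from 0.0182% to 0.00906%, with 4 of 6 tested called lower and 1 higher and with Siglech at 0 in all libraries. Granule genes of myeloid progenitors, cells that divide themselves, went the other way, from 0.0489% to 0.1005%, with 5 of 5 called higher and Mpo at 148 CPM in control and 287 CPM with DB2313. Mast cell and basophil markers took 0.0838% and 0.0610%, a sum led by Cpa3, although 3 of 5 were called higher and 2 lower. B cell markers, led by Cd79b, took 0.00548% and 0.00694%, with 3 of 7 called higher and 2 lower (42.9% and 28.6%, the latter near the background). With scaling to the T cell markers Cd79b stood at -0.11 and was not called, while Mpo stood at 0.38 and was called higher. Erythroid markers took 5.41e-04% and 8.72e-04%, with 2 of 4 tested called higher and 0 lower, and Klf1, the most abundant of them, was not called. The division genes are used by any dividing cell, and which cells contributed their counts was not tested.

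The remaining division machinery was counted in 10 further lists of 180 tested genes, and under TMM 67 were called higher and 12 lower (backgrounds 20.8% and 24.6%). With scaling to the T cell markers 0 were called higher and 170 lower (backgrounds 1.26% and 76.6%). Origin licensing and firing factors, the neighbours of the MCM genes, were called higher in 11 of 19 and lower in 0 under TMM, and the largest rise among those with at least 10 CPM was that of Donson, a replisome scaffold, with a log2 change of 0.35 (-0.23 with scaling to the T cell markers). Replicative polymerases and fork proteins were called higher in 10 of 27 and lower in 2. Tipin, of the fork protection complex, had a log2 change of 0.39 (-0.18 with scaling to the T cell markers) and Dna2, the flap nuclease, one of -0.62. Among 13 deoxynucleotide genes 4 were called higher and 2 lower, with Dtymk, thymidylate kinase, at 0.39 (-0.18 with scaling to the T cell markers) and Cmpk1, a pyrimidine kinase, at -0.30.

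Of 16 genes in the list of cyclin-dependent kinases, their inhibitors and further cyclins, 4 were called higher and 3 lower (25% and 18.8%), near the background of 20.8% and 24.6%. Cdkn1a, the p21 inhibitor, was at 336, 346 and 355 CPM in control and at 225, 221 and 215 CPM with DB2313. That gap was far wider than the spread within either group, and the log2 change was -0.65 ± 0.035 (adjusted p = 2.09e-13), which was -1.22 with scaling to the T cell markers. Cks1b, a subunit of cyclin-dependent kinases, rose by 0.23 under TMM and stood at -0.34 with scaling to the T cell markers. Of 18 regulators of the Rb, E2F and DREAM axis 5 were called higher and 2 lower (27.8% and 11.1%). E2f2, the activator closest to E2f1, fell with it, from 74.0 ± 2.81 to 59.8 ± 1.92 CPM, a log2 change of -0.31 (adjusted p = 3.39e-05), while E2f6, a repressor, was called higher at 0.37 under TMM and stood at -0.20 with scaling to the T cell markers. Of 11 checkpoint kinases and CDC25 phosphatases 4 were called higher and 1 lower (36.4% and 9.09%) under TMM, with Chek1 at 0.50 and Chek2 at -0.30, and Chek1 stood at -0.07 with scaling to the T cell markers.

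Kinetochore and spindle checkpoint genes were called higher in 8 of 20 (40%) under TMM, with Dsn1 at 0.30, with 0 called lower. Spindle motors and cytokinesis genes were called higher in 4 of 20 (20%, near the background of 20.8%), with Kifc1 at 0.30, and lower in 0. Dsn1 and Kifc1 both stood at -0.27 with scaling to the T cell markers. Condensin and cohesin genes were called higher in 8 of 16 and lower in 0. Smc4, the core ATPase of condensin, was at 251, 250.1 and 240.2 CPM in control and at 372, 373 and 388 CPM with DB2313. All DB2313 libraries of Smc4 were far above control, and its log2 change of 0.61 ± 0.034 (adjusted p = 4.71e-13) was larger than that of any of the 44 members and was 0.04 with scaling to the T cell markers. Ubiquitin ligase genes of the APC/C and SCF complexes were called higher in 9 of 20 and lower in 2 under TMM, with Cdc26 at 0.53 (-0.04 with scaling to the T cell markers) and Anapc13 at -0.45.

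**Figure D5:**
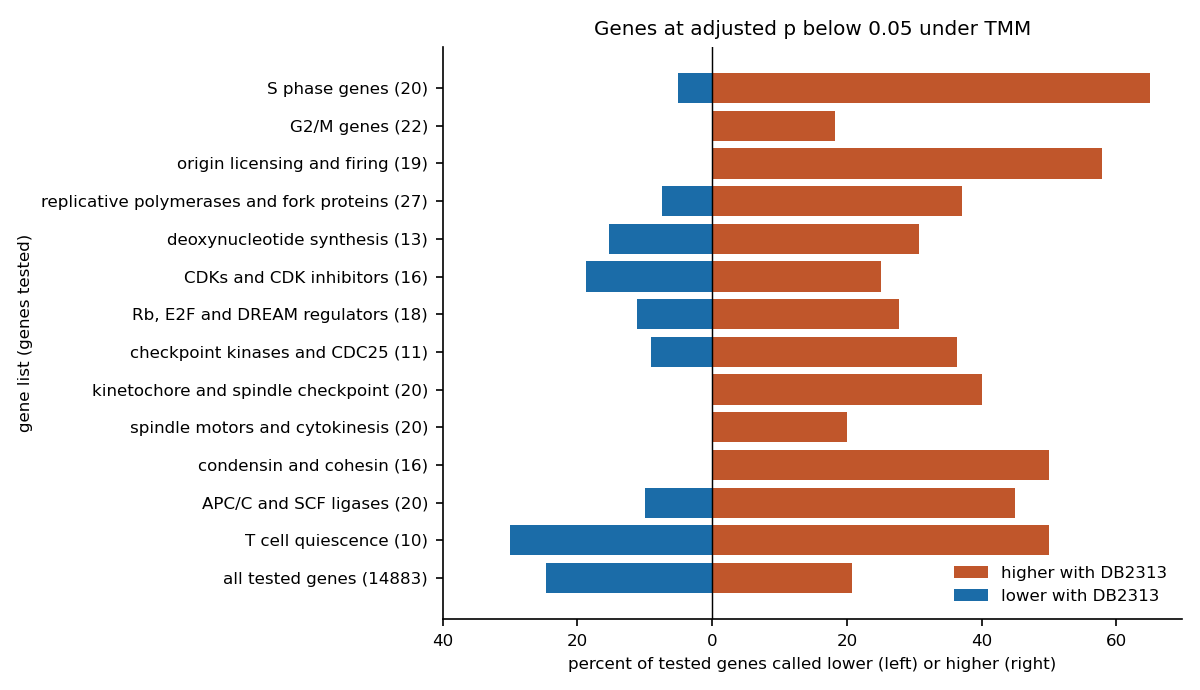
Percent of tested genes in each list that were called higher (to the right) or lower (to the left) with DB2313 under TMM at an adjusted p of 0.05, with the number of genes tested in parentheses and all tested genes at the bottom. S phase genes (13 of 20) and origin licensing genes (11 of 19) reach furthest to the right, and no member or list gene was called higher with scaling to the T cell markers.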

How the data were processed

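RNA of 3 control and 3 DB2313 samples was sequenced, and the authors deposited whole-number read counts per gene, without normalization, with gene coordinates and lengths. The study's methods name LifeScope for alignment and counting, whereas the submitters' processing notes list CASAVA 1.8, HISAT2 2.0.5 and featureCounts 1.5.0-p3. Which made the counts, and whether counting used the strand, is not given in the sources used here. All 44 members have the GRCm38 coordinates of the GENCODE annotation, as have 98.3% of the 54409 genes shared with it. Groups were taken from GEO's labels.

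Genes were filtered with filterByExpr, scaled by TMM and tested with edgeR 4.0.16 (glmQLFit and glmQLFTest, two-sided) in R 4.3.3, with Benjamini-Hochberg adjustment over all 14883 tested genes. DESeq2 1.42.0, 3 other scalings, 2 other filters, a replicate block and leaving out each library were the 13 alternatives. The scripts were tested on simulated data. The chi-square per gene was 2.18 to 3.19 between replicates, above sampling noise, and 33.2 to 35.8 between groups. The reads carried no molecular identifiers named in the sources used here. CPM per kb used the deposited length. Promoters came from RefSeq. Exons of 12 members overlap those of other genes on the opposite strand by more than 2%.

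The members and lists were chosen with earlier results of these data known. All 44 members are named. From each further list, the genes named are the largest rise and fall past the threshold with at least 10 CPM, and from each marker list the most abundant gene. Uhrf1 and Slbp were set beside their promoter matches after their values were seen.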

Additional observations from a re-analysis of the deposited data

How the results depend on the processing

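Of the 13 alternatives, the scaling of the libraries changed the most. Under library size and upper quartile scaling, 34 and 31 members were called higher and 1 and 1 lower, 17 and 14 of them G2/M genes called higher. Over all tested genes, 33.1% and 29.0% were called higher and 19.2% and 20.8% lower. The medians were then 0.27 and 0.24 for S phase genes and 0.19 and 0.16 for G2/M genes, and the summed levels changed by 0.28 and 0.25 and by 0.22 and 0.18 on the log2 scale. Scaling to the T cell markers called 0 members higher and 44 lower (20 S phase and 22 G2/M genes among them) and, of the 190 genes of the further lists with the T cell quiescence genes, 0 higher and 179 lower. Over all tested genes it called 1.26% higher and 76.6% lower. There the medians were -0.39 and -0.48 and the summed changes -0.39 and -0.45. On that scale the log2 changes that turned from above to below 0 were Mcm2 -0.46, Mcm3 -0.41, Mcm4 -0.38, Mcm5 -0.36, Mcm6 -0.29, Mcm7 -0.38, Pcna -0.31, Rrm1 -0.40, Rrm2 -0.45, Tyms -0.36, Cdc6 -0.40, Cdc45 -0.29, Gins2 -0.39, Ung -0.40, Chaf1b -0.38, Slbp -0.20, Ccne2 -0.41, Mki67 -0.51, Top2a -0.34, Ccna2 -0.41, Ccnb1 -0.46, Ccnb2 -0.51, Cdk1 -0.52, Cdc20 -0.51, Aurka -0.56, Aurkb -0.53, Bub1 -0.38, Bub1b -0.49, Plk1 -0.45, Tpx2 -0.40, Birc5 -0.41, Cenpa -0.56, Cenpe -0.49, Cenpf -0.45, Kif11 -0.49, Kif20b -0.48, Nusap1 -0.46, Hmmr -0.37, Ube2c -0.48 and Ccnd3 -0.53. Uhrf1 turned to 0.090 under library size and 0.059 under upper quartile scaling, and Ccne1 to 0.023 under library size. The cause was not tested.

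Leaving out each library in turn gave 13 to 16 members called higher and 1 to 2 lower, with 10 to 12 S phase genes and 2 to 5 G2/M genes called higher. G2/M calls fell to 2 (from 4) without control replicate 2. Medians ranged from 0.17 to 0.20 for S phase and 0.088 to 0.11 for G2/M genes. Changes crossed 0 for Aurka (-0.0419 to 0.065), Cenpa (-0.035 to 0.057), Kif20b (-0.000642 to 0.16) and Uhrf1 (-0.013 to 0.011). With the replicate number as a block, 13 members were called higher and 2 lower, and Mcm2, Rrm2, Chaf1b and Hmmr lost their calls, as in DESeq2. Same-numbered samples did not deviate together (correlations of -0.0039 to 0.019). No pairing by number was seen, which cannot show that the samples were prepared without pairing. Depth limits Gins2 and Ccne2 most, with standard errors of 0.10 and 0.11.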

Other observations

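Genes that keep resting T cells out of the cycle were counted as well, and moved in both directions under TMM. Of 10 such genes, 5 were called higher (Btg2, Klf2, Foxo1, Foxp1 and Ccng2) and 3 lower (Tob1, Foxo3 and Tsc1), beside 20.8% and 24.6% of all tested genes. Klf2, a factor of T cell quiescence and of exit from lymphoid organs, was at 165, 160 and 171 CPM in control and at 244, 250.1 and 262 CPM with DB2313. The groups of Klf2 were far apart, with a log2 change of 0.61 ± 0.038 (adjusted p = 3.02e-12), which was 0.04 with scaling to the T cell markers. Btg2, an antiproliferative gene, was at 136, 141 and 147 CPM in control and at 194, 187 and 189.7 CPM with DB2313, a log2 change of 0.43 ± 0.038 (adjusted p = 1.66e-09), and stood at -0.14 with scaling to the T cell markers. On that scale Foxo1, Foxp1 and Ccng2 stood at -0.42, -0.32 and -0.30. Thus 4 of the 5 genes called higher turned and were called lower, as were 76.6% of all tested genes. Tsc1, a brake on mTOR, fell from 70.6 ± 4.69 to 57.9 ± 1.34 CPM, a log2 change of -0.29 ± 0.056, and stood at -0.86 with scaling to the T cell markers. The genes other than Klf2 and Tsc1 were chosen after their values were seen.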
